A study of Mus musculus with 9 samples.

Results

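Inflammatory chemokines are small secreted proteins that draw leukocytes into injured or infected tissue. The genes described here are 10 mouse chemokine genes of this kind, chosen by name as inducible CC and CXC chemokines that attract monocytes and lymphocytes, of 40879 gene symbols in the table: Ccl2, Ccl3, Ccl4, Ccl5, Ccl7, Ccl12, Cxcl9, Cxcl10, Cxcl13 and Cxcl16. Their transcripts were counted in 9 spinal cord libraries from wild-type (WT) mice, 3 in each of 3 groups. The naive group had no disease. The EAE vehicle group had experimental autoimmune encephalomyelitis (EAE), an autoimmune attack on myelin used as a model of multiple sclerosis, and received the vehicle. The EAE GV1001 group had EAE and received GV1001, a peptide derived from telomerase. How EAE was induced, its stage, the dose, and the age and sex of the mice are not given in the sources used here, nor is it stated that the replicates are separate animals. The p-values below therefore measure the spread between these libraries, which may be partly technical.

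Chemokines bind receptors on leukocytes, and each receptor is carried by particular cells, so the ligands that a tissue makes bear on which cells enter it. In the EAE cord, chemokines are known products of infiltrating monocytes and lymphocytes and of resident microglia, astrocytes and endothelium. Many of their genes are switched on by interferon-gamma, or by tumour necrosis factor and interleukin-1 through NF-kB.

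Total counts ranged from 5247246 to 6174870 per library, and where a gene had no count, its level in that library could still reach 0.486 to 0.572 CPM, in which every library is scaled to the same total. That limit and the intervals below cover counting error only. All 10 spinal cord marker genes were detected in every group, with a summed level of 15224 to 23174 CPM. Single libraries stood apart on other marker lists. The 4 haemoglobin genes summed to 4819 CPM in vehicle replicate 2 and to 252 to 713 CPM in the other libraries. The 10 skeletal muscle genes summed to 4519 CPM in GV1001 replicate 1, 1185 CPM in GV1001 replicate 2 and 19.9 to 493 CPM in the other libraries.

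In the cord of vehicle-treated mice with EAE, all 10 chemokine genes had higher fitted levels than in the naive cord, and Ccl12 passed the test across all genes. The 10 genes summed to 24, 62 and 43 counts in replicates 1 to 3 of the naive group, to 4047, 329 and 558 with vehicle and to 104, 1477 and 231 with GV1001. Scaled to the library totals, this was 4.28, 10.7 and 7.76 CPM in naive cord, 727, 62.7 and 97.3 CPM with vehicle and 19.6, 260.4 and 37.4 CPM with GV1001. Every EAE library lay above every naive one in this sum. The vehicle and GV1001 groups overlapped. In bulk tissue, fewer cells of a type and less RNA per cell cannot be told apart.

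**Figure D1:**
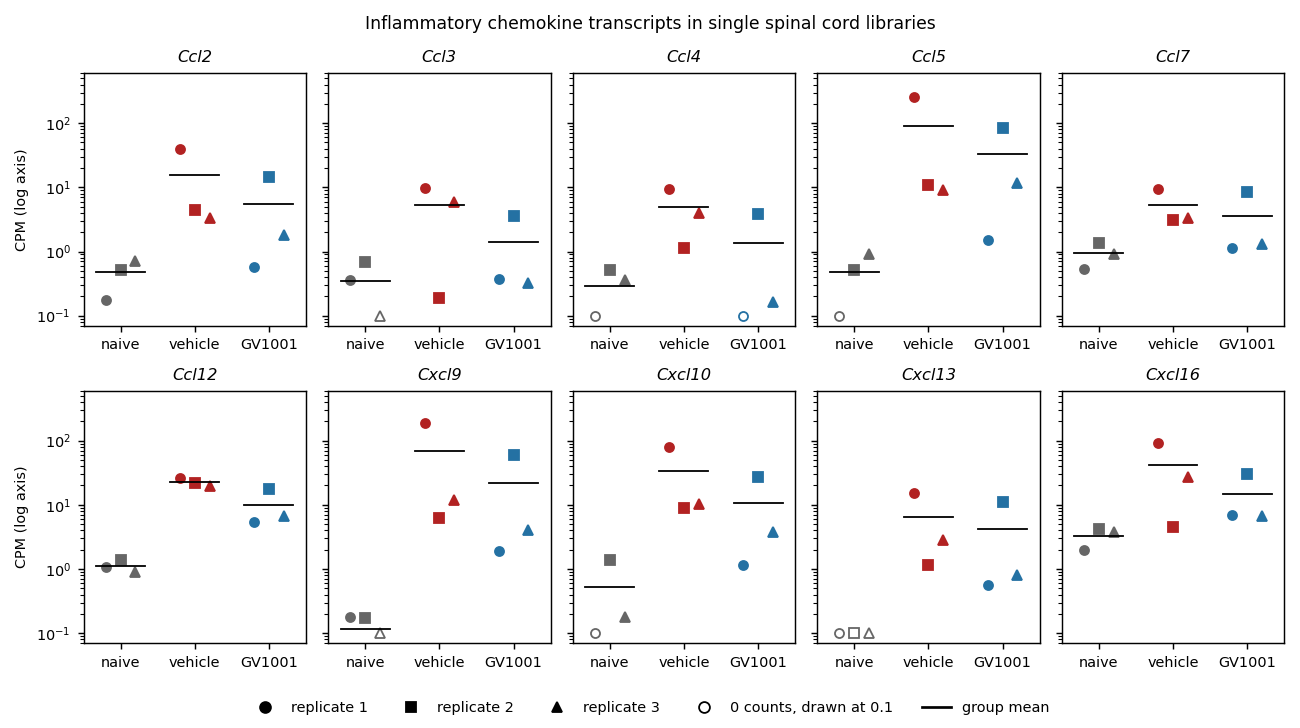
Level of each of the 10 chemokine genes in CPM (log axis) in the 9 libraries, by group, with the replicate number as the symbol, group means as lines and counts of 0 as open symbols at 0.1. Vehicle replicate 1 was the highest library for 10 of 10 genes, and Ccl12 was the one gene whose 3 GV1001 libraries all lay below the 3 vehicle libraries. For Ccl12 the counting intervals of vehicle replicate 3 and GV1001 replicate 2 overlapped.

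The first group of ligands acts on Ccr2, the receptor that inflammatory monocytes use to leave the blood. Ccl12, a mouse chemokine of the monocyte chemoattractant family, had 1.07, 1.38 and 0.902 CPM in naive replicates 1 to 3. With vehicle it had 26.6, 21.9 and 19.5 CPM, and with GV1001 5.48, 17.5 and 6.80 CPM. The 3 groups did not overlap: vehicle was highest, GV1001 lay between and naive was lowest. Ccl12 rose by 4.28 ± 0.51 (log2 fold change ± SE, n = 3 against 3) in vehicle against naive cord, with an adjusted p of 0.0258 by edgeR's quasi-likelihood test with Benjamini-Hochberg adjustment. The call was lost, with adjusted p from 0.0745 to 0.258, without any 1 naive library, without vehicle replicate 3 or without GV1001 replicate 3, while the log2 fold change stayed between 4.16 and 4.46.

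Ccl2, the main monocyte attractant of the family, had 0.178, 0.518 and 0.722 CPM in the naive libraries. It had 39.5, 4.38 and 3.31 CPM with vehicle and 0.567, 14.3 and 1.78 CPM with GV1001. All vehicle libraries lay above the naive ones, while GV1001 replicate 1, with 3 counts, lay within the naive range. The log2 fold change in vehicle against naive was 4.99 ± 1.53 (adjusted p = 0.106, edgeR). Ccl7, another Ccr2 ligand, had 0.535, 1.38 and 0.902 CPM in naive cord, 9.52, 3.05 and 3.31 CPM with vehicle and 1.13, 8.46 and 1.30 CPM with GV1001. Its GV1001 replicates 1 and 3 lay below the highest naive library. Its log2 fold change was 2.44 ± 0.92 (adjusted p = 0.173, edgeR), the smallest of the 10.

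Ccl3, Ccl4 and Ccl5 attract monocytes, macrophages and activated T cells, Ccl3 and Ccl5 in part through the receptor Ccr1. Ccl5 had 0, 0.518 and 0.902 CPM in naive cord, 253, 11.1 and 9.06 CPM with vehicle and 1.51, 85.3 and 11.7 CPM with GV1001. All 6 EAE libraries lay above the naive ones, and vehicle replicate 1 and GV1001 replicate 2 were far above the other EAE libraries. The log2 fold change in vehicle against naive was 7.53 ± 2.12 (adjusted p = 0.0911, edgeR).

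Ccl3 had 0.356, 0.691 and 0 CPM in naive cord, 9.70, 0.191 and 5.93 CPM with vehicle and 0.378, 3.53 and 0.324 CPM with GV1001. Vehicle replicate 2 held 1 count, within the naive range, which made Ccl3 the one gene of the 10 whose vehicle and naive libraries overlapped. Ccl4 had 0, 0.518 and 0.361 CPM in naive cord, 9.52, 1.14 and 4.01 CPM with vehicle and 0, 3.88 and 0.162 CPM with GV1001. In GV1001 cord, Ccl4 was above the naive range in replicate 2 alone. The log2 fold changes in vehicle against naive were 3.81 ± 1.19 for Ccl3 (adjusted p = 0.108, edgeR) and 3.94 ± 1.19 for Ccl4 (adjusted p = 0.10, edgeR).

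Cxcl9 and Cxcl10 are interferon-induced ligands of Cxcr3, a receptor of activated T cells. Cxcl9 held 1, 1 and 0 counts in naive cord, or 0.178, 0.173 and 0 CPM, against 191, 6.29 and 11.7 CPM with vehicle and 1.89, 59.8 and 4.05 CPM with GV1001. All 6 EAE libraries lay above the naive ones. Since the naive group held 2 counts in all, the ratio of summed levels was 597 in vehicle against naive (exact 95% interval 165 to 4935) and 185 in GV1001 against naive (50.8 to 1532), while the fitted log2 fold change of 8.97 ± 2.31 (adjusted p = 0.0732, edgeR) depends on the prior count. Both ratios rested on 1 library: without vehicle replicate 1 (1066 counts) the first was 77.1 (20.8 to 646), and without GV1001 replicate 2 (339 counts) the second was 25.9 (6.64 to 222). Leaving out the highest library of a ratio was chosen after seeing the data. Cxcl10 had 0, 1.38 and 0.180 CPM in naive cord, 81.0, 8.96 and 10.1 CPM with vehicle and 1.13, 26.8 and 3.73 CPM with GV1001. Its GV1001 replicate 1 lay below the highest naive library. The log2 fold change in vehicle against naive was 5.91 ± 1.57 (adjusted p = 0.0825, edgeR).

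Cxcl13, which draws B cells through Cxcr5, had no count in any naive library. It had 15.3, 1.14 and 2.79 CPM with vehicle and 0.567, 11.1 and 0.810 CPM with GV1001, so all 6 EAE libraries were above 0 and GV1001 replicate 1 was the lowest of them with 3 counts. Against 3 counts over the naive group (0.177 CPM), it was at least 36.5-fold higher with vehicle and at least 23.4-fold higher with GV1001. Without vehicle replicate 1 the first bound was 11.3-fold, and without GV1001 replicate 2 the second was 3.94-fold. Its adjusted p in vehicle against naive was 0.179 (edgeR). Cxcl16, made as a membrane-bound protein whose shed form attracts Cxcr6-bearing T cells, had 1.96, 4.14 and 3.79 CPM in naive cord, 91.6, 4.57 and 27.5 CPM with vehicle and 6.99, 29.8 and 6.80 CPM with GV1001. All EAE libraries lay above the naive range, vehicle replicate 2 only just. Its log2 fold change in vehicle against naive was 3.63 ± 1.02 (adjusted p = 0.0953, edgeR).

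For Ccl12, Cxcl9 and Cxcl10 the start of the gene is shown, because Ccl12 was the gene that passed the test, and Cxcl9 and Cxcl10 are neighbours that interferon-gamma is known to induce together. Each run holds 250 bases before the RefSeq start site and 50 after it, in build GRCm38.p6, 5′ to 3′ on the gene's strand. Capitals mark matches, on either strand, to the 9-letter interferon-type form GAAANNGAA and to the NF-kB consensus. The windows are chr11:82101595-82101894 (plus strand) for Ccl12, chr5:92328030-92328329 (minus strand) for Cxcl9 and chr5:92348840-92349139 (minus strand) for Cxcl10.
Ccl12: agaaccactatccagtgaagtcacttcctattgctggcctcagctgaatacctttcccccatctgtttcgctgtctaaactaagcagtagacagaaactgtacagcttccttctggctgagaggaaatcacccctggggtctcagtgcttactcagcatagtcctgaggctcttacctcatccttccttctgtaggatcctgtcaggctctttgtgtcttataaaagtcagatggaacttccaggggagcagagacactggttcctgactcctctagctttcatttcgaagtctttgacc
Cxcl9: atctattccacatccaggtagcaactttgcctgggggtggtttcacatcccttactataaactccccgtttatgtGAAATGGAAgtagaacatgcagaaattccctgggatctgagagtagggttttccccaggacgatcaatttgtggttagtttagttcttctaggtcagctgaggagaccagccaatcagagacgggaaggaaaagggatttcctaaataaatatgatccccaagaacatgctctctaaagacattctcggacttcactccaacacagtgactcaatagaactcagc
Cxcl10: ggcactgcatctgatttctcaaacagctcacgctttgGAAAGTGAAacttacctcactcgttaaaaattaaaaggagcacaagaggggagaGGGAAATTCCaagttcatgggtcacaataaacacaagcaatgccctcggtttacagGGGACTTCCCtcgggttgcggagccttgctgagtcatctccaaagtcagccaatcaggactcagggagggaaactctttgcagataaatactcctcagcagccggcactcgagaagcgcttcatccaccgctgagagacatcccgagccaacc

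The Cxcl10 window held 2 NF-kB matches, at -159 to -150 and -103 to -94 from the start site, and 1 GAAANNGAA match at -213 to -205. The matches did not overlap. The Cxcl9 window held 1 GAAANNGAA match at -175 to -167. Neither form was found in the Ccl12 window, which says only that these letters are not in it. Of the 10 genes, 5 had a promoter in the RefSeq table. Of the other two, Ccl3 had 1 GAAANNGAA match at -39 to -31 on the opposite strand and Cxcl13 had none. Ccl2, Ccl4, Ccl5, Ccl7 and Cxcl16 are not in it. Of 32851 promoter windows of the same length, 4.51% held the NF-kB consensus and 8.56% held GAAANNGAA. The gamma-activated site form TTCNNNGAA was also searched. It had no match in any of the 5 windows, while 8.30% of all windows held it. A match is a description of the sequence, and binding was not measured.

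In the GRCm38 annotation, 7 of the 10 genes lie on chromosome 11 and 3 on chromosome 5. Ccl2, Ccl7, Ccl11, Ccl12 and Ccl8 follow each other on the plus strand, and Ccl3 and Ccl4 are next to each other. The neighbours did not all move alike: Ccl11, an eosinophil attractant between Ccl7 and Ccl12, had a log2 fold change of 0.20 ± 0.59 in vehicle against naive cord, and Ccl8 one of 5.43 ± 1.08 (adjusted p = 0.892 and 0.0629, edgeR). Cxcl10 overlaps Art3, Cxcl16 overlaps Zmynd15 and Ccl2 overlaps Gm17268, each on the opposite strand, and Gm17268 was not analysed here. Whether the authors counted by strand is not given in the sources used here, so reads of a pair may not be told apart. Art3 held 69 to 88 counts in the naive libraries and 52 to 117 in the EAE libraries, and Cxcl10 held 0 to 8 in naive cord. Zmynd15 held 58 counts in vehicle replicate 1 and 39 in GV1001 replicate 2, against 2 to 15 in the other libraries. Cxcl16 held 510 counts in vehicle replicate 1, 169 in GV1001 replicate 2 and 158 in vehicle replicate 3, where Zmynd15 held 8. Whether reads of one gene of a pair were counted for the other was not tested.

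Across the whole table, edgeR's quasi-likelihood test called 0.0195% of 15351 genes higher in vehicle against naive cord (3 genes), and 1 of the 10 chemokine genes, Ccl12. All 10 had an unadjusted p under 0.05, as had 2970 of all genes tested. The median log2 fold change was 4.64 over the 10, with Cxcl13 fitted or at its bound, and -0.00 over all genes tested. All 10 passed the filter on low counts, but 9 of them were not above its 1.78 CPM in every naive library and passed through EAE libraries, so the shared direction and the median are no support for a change. In 9 of the 10, all but Ccl3, every vehicle library exceeded every naive one, which 13.6% of the genes tested also did. DESeq2 called 8 of the 8 chemokine genes for which it gave an adjusted p, beside 4.84% of its genes called higher. For Ccl2 and Cxcl9 it gave a log2 fold change but neither a p nor an adjusted p. With limma-voom 0 were called, with 4 at an unadjusted p under 0.05.

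Leaving out a vehicle library moved these folds. Without vehicle replicate 1, the highest library for each of the 10, the log2 fold changes against naive were smaller, at 2.91 for Ccl2, 1.68 for Ccl7, 3.03 for Ccl3, 3.01 for Ccl4, 4.29 for Ccl5, 5.97 for Cxcl9, 4.06 for Cxcl10, 6.48 for Cxcl13 and 2.24 for Cxcl16, while Ccl12 kept 4.13 and its call (adjusted p = 0.0320, edgeR). Vehicle replicate 2 was the haemoglobin-rich library and also had the lowest chemokine sum of its group (62.7 CPM). Without it edgeR called 8 of the 10, all but Ccl7 (adjusted p = 0.0996) and Cxcl13 (adjusted p = 0.083), and 1652 genes in all. The log2 fold changes of the 10 then ran from 2.71 for Ccl7 to 9.51 for Cxcl9, with 5.43 for Ccl2, 4.36 for Ccl3, 8.05 for Ccl5, 6.36 for Cxcl10, 8.68 for Cxcl13, 4.15 for Cxcl16 and 4.32 for Ccl12.

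**Figure D2:**
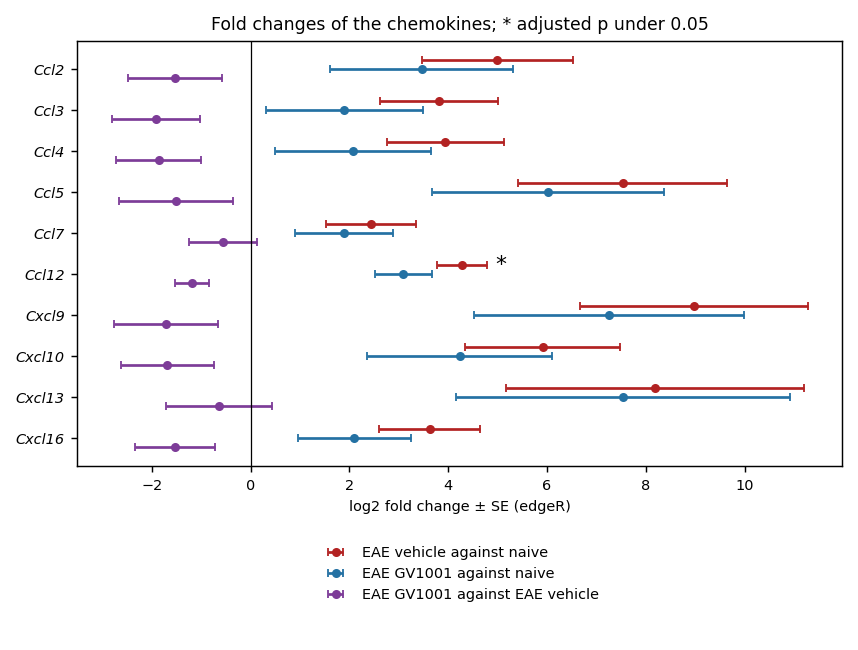
Fitted log2 fold change (x axis) of each chemokine gene in 3 comparisons, as points with bars of 1 SE from edgeR; the asterisk marks an adjusted p under 0.05. Only Ccl12 in vehicle against naive is marked, at 4.28 ± 0.51, and in the 2 comparisons with naive the bars of Cxcl13 and Cxcl9, which had 0 and 2 naive counts, are the widest.

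In EAE cord with GV1001 against vehicle, all 10 fitted log2 fold changes were negative and none passed the test. edgeR called 0 of the 10, and 0.0% of all genes tested as lower, with adjusted p from 0.528 to 0.872 for the 10. At an unadjusted p under 0.05 there were 2, Ccl12 and Ccl4, beside 1394 of all genes tested. DESeq2 called 0 of 8, with 1 at an unadjusted p under 0.05 and 0.0198% of its genes called lower, and limma-voom called 0, with 1. The median was -1.53 over the 10 and -0.01 over all genes tested.

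Ccl12 had the smallest p and the smallest SE, with -1.19 ± 0.35 (adjusted p = 0.528, edgeR). It was the 1 gene of the 10 whose GV1001 libraries all lay below the vehicle ones, as did 5.03% of the genes tested. For the other Ccr2 ligands the log2 fold change was -1.52 ± 0.95 for Ccl2 and -0.55 ± 0.69 for Ccl7. It was -1.92 ± 0.88 for Ccl3, -1.86 ± 0.86 for Ccl4 and -1.51 ± 1.15 for Ccl5. The Cxcr3 ligands had -1.71 ± 1.06 for Cxcl9 and -1.68 ± 0.93 for Cxcl10, Cxcl13 had -0.64 ± 1.06 and Cxcl16 had -1.53 ± 0.81. The SE exceeded the fitted difference itself for Ccl7 and Cxcl13.

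The direction with GV1001 rested on vehicle replicate 1 for 6 of the 10 genes. Without it the log2 fold change in GV1001 against vehicle turned positive for Ccl2 (0.56), Ccl5 (1.74), Ccl7 (0.21), Cxcl9 (1.29), Cxcl10 (0.17) and Cxcl13 (1.07). It stayed negative for Ccl12 (-1.03), Ccl3 (-1.14), Ccl4 (-0.93) and Cxcl16 (-0.15). Without GV1001 replicate 2, the highest GV1001 library for 10 of 10 genes, the differences were more negative, from -1.87 for Ccl12 to -5.50 for Ccl4. GV1001 replicate 1 was high in muscle transcripts and also had the lowest chemokine sum of its group (19.6 CPM). Without it the differences ranged from -0.16 for Ccl7 and Cxcl13 to -1.51 for Ccl3, and Ccl12 had -0.92. Without vehicle replicate 2, the haemoglobin-rich library with the lowest chemokine sum of its group, all 10 were negative. They ran from -0.83 for Ccl7 to -2.47 for Ccl3, with -1.23 for Ccl12. None of these fits called any of the 10 (edgeR).

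**Figure D3:**
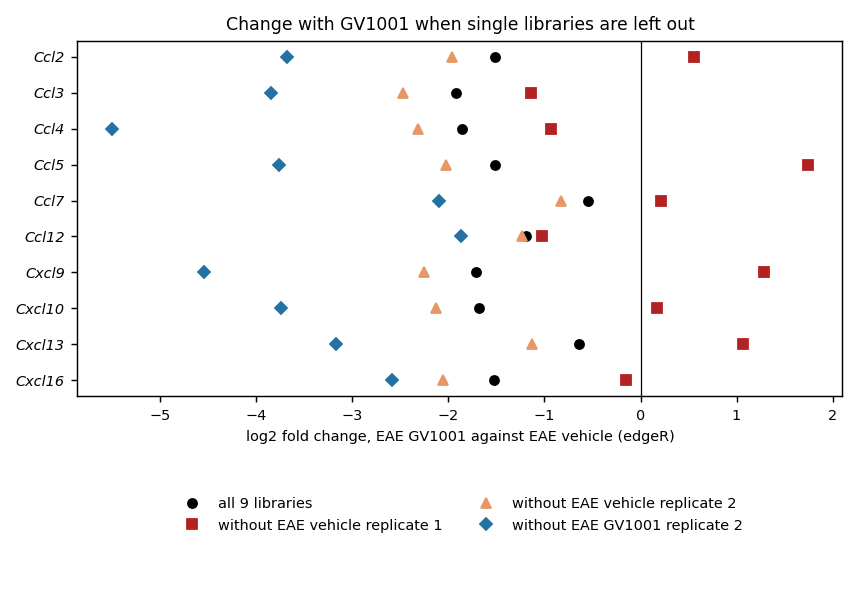
Log2 fold change in EAE GV1001 against EAE vehicle (x axis) for each chemokine gene, with all 9 libraries and with 1 library left out, as fitted by edgeR. Without vehicle replicate 1 the points of 6 genes lie to the right of 0, while Ccl12 moves from -1.19 to -1.03; without GV1001 replicate 2 every point lies further left.

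Against naive cord, the GV1001 libraries had positive log2 fold changes for all 10 genes, and edgeR called 0 of them, as it did 0.0% of all genes tested. At an unadjusted p under 0.05 there were 4, Ccl5, Ccl12, Cxcl9 and Cxcl10, beside 1121 of all genes tested. DESeq2 called 1 of 8, Ccl12 (3.13 ± 0.52), beside 0.219% of its genes called higher, and limma-voom called 0, with 2 at an unadjusted p under 0.05. edgeR gave Ccl12 a log2 fold change of 3.09 ± 0.58 (adjusted p = 0.405), and Cxcl16 had 2.10 ± 1.14. Every GV1001 library exceeded every naive one for Ccl5, Ccl12, Cxcl9, Cxcl13 and Cxcl16, 5 of the 10, beside 10.2% of the genes tested. Without GV1001 replicate 2 the direction turned for Ccl3 (1.89 to -0.04) and Ccl4 (2.08 to -1.56), and the other 8 ranged from 0.34 for Ccl7 to 5.01 for Cxcl13, with 2.41 for Ccl12. Without GV1001 replicate 1 all 10 were positive, from 2.28 for Ccl7 to 8.03 for Cxcl13, with 3.36 for Ccl12.

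With both EAE groups weighted equally against naive, edgeR called 0 of the 10 (0.00651% of all genes tested were called higher), while 10 of 10 had an unadjusted p under 0.05, as had 2353 of all genes tested. Ccl12 had the smallest adjusted p, 0.111, with a log2 fold change of 3.69 ± 0.50. Without GV1001 replicate 2 its adjusted p was 0.0109, and without vehicle replicate 2 it was 0.0261, when Cxcl9 and Cxcl16 also passed. DESeq2 called 4 of 8 (Ccl5, Ccl12, Cxcl10 and Cxcl13) beside 2.78% of its genes, and limma-voom called 0, with 2 at an unadjusted p under 0.05. The same 5 genes that separated GV1001 from naive had all 6 EAE libraries above all naive ones, as had 5.25% of the genes tested. The counting intervals of the nearest libraries again overlapped for all but Ccl12. The comparisons with naive share the naive libraries, and those with vehicle share the vehicle libraries.

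The 10 genes differed in how far the libraries of a group lay apart. Ccl12 varied least: the highest vehicle library was 1.36 times the lowest (95% counting interval 1.06 to 1.76). Ccl7 came next at 3.12 times (1.76 to 5.85). For the others the ratio was 8.32 for Ccl4, 9.04 for Cxcl10, 11.9 for Ccl2, 13.3 for Cxcl13, 20.0 for Cxcl16, 27.9 for Ccl5 (21.1 to 37.5) and 30.4 for Cxcl9 (21.5 to 44.5). For Ccl3 it was 50.9, but the lowest library held 1 count (8.75 to 2046). Within the GV1001 group Ccl12 again had the smallest ratio, 3.19 (2.09 to 5.00), and Ccl5 had a ratio of 56.5 (28.4 to 132).

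The make-up of the chemokine counts shifted with their sum. Ccl12 made up 35% of the counts of the 10 genes in vehicle replicate 2 (Wilson 95% interval 30.0 to 40.3%) and 20.1% in vehicle replicate 3 (17.0 to 23.6%), where the sum was low, but 3.66% in vehicle replicate 1 (3.12 to 4.28%). In the GV1001 libraries its share was 27.9% in replicate 1 (20.2 to 37.2%), 6.70% in replicate 2 (5.54 to 8.09%) and 18.2% in replicate 3. In both EAE groups the library with the highest sum thus had the lowest Ccl12 share, outside the intervals of the other libraries. Within the vehicle group, Ccl5 and Cxcl9 had their highest shares in replicate 1: Ccl5 held 34.8, 17.6 and 9.32% of the counts in vehicle replicates 1 to 3 and Cxcl9 held 26.3, 10 and 12%. Ccl5 took 7.69, 32.8 and 31.2% in the GV1001 replicates, so its share was high in GV1001 replicate 3 too, where the sum was low. Cxcl16 took the largest share in naive cord, 38.7 to 48.8%, of few counts.

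**Figure D4:**
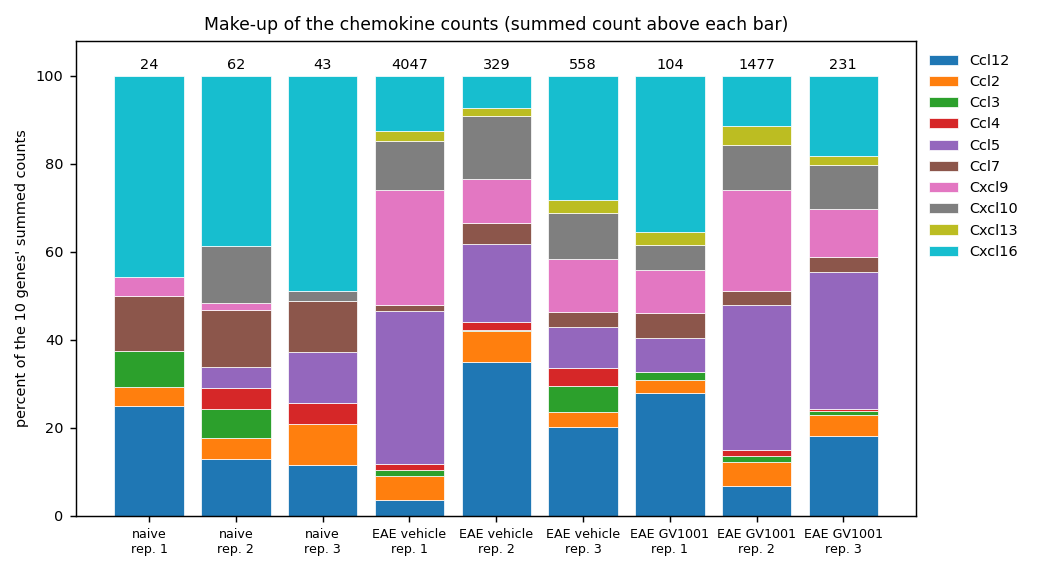
Share of each gene in the summed counts of the 10 chemokine genes (y axis, percent) in the 9 libraries, with the summed count above each bar. Ccl12, at the foot of each bar, takes 3.66% of 4047 counts in vehicle replicate 1 and 35% of 329 counts in vehicle replicate 2.

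Across the 6 EAE libraries, the Pearson correlation of log2 CPM between pairs of the 10 genes had a median of 0.91 over 45 pairs, as a description of libraries that include 2 high ones. The highest was 0.99, between Ccl2 and Cxcl10, and the lowest was 0.61, between Ccl12 and Cxcl16. Ccl12 had 0.61 to 0.91 with the others. Vehicle replicate 1 was highest for all 10 genes, and GV1001 replicate 2 was second for 7 of them. The exceptions were Ccl3 and Ccl4, for which vehicle replicate 3 came second, and Ccl12, for which the other vehicle libraries did.

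Receptors of these ligands were low in naive cord. Ccr2 had 1.60, 2.07 and 1.08 CPM in naive cord, 65.9, 5.15 and 14.8 CPM with vehicle and 2.83, 21.9 and 6.48 CPM with GV1001, so that all EAE libraries lay above the naive ones. Cxcr6 had 0.178, 0.518 and 0 CPM in naive cord, 11.7, 1.14 and 4.01 CPM with vehicle and 0.378, 4.58 and 1.30 CPM with GV1001, with GV1001 replicate 1 within the naive range. In both genes vehicle replicate 1 was the highest library and GV1001 replicate 2 the highest of its group.

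In vehicle against naive, edgeR called neither gene, with a log2 fold change of 4.15 ± 1.13 for Ccr2 and 4.44 ± 1.17 for Cxcr6 (adjusted p = 0.0898 and 0.0772). The unadjusted p was under 0.05 for both. DESeq2 called both, and also Ccr1 and Cxcr3, which edgeR did not test, beside 4.84% of its genes called higher. limma-voom called neither Ccr2 nor Cxcr6. In GV1001 against vehicle, no tool called either gene or gave it an unadjusted p under 0.05. The log2 fold changes there were -1.48 ± 0.81 for Ccr2 and -1.43 ± 0.74 for Cxcr6 (edgeR).

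Ccr1 had 3, 2 and 1 counts in naive cord, 29, 9 and 10 with vehicle and 8, 16 and 11 with GV1001, with no overlap between naive and EAE libraries. Cxcr3, the receptor of Cxcl9 and Cxcl10, had no count in naive cord, 5.21, 0.381 and 1.57 CPM with vehicle and counts in GV1001 replicate 2 alone of its group (1.41 CPM). Against 3 counts over the naive group, Cxcr3 was at least 13.7-fold higher with vehicle, and at least 5.66-fold without vehicle replicate 1. Cxcr5, the receptor of Cxcl13, held at most 3 counts in any library and Ccr3 at most 2, so no difference between groups was detectable at this depth.

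**Figure D5:**
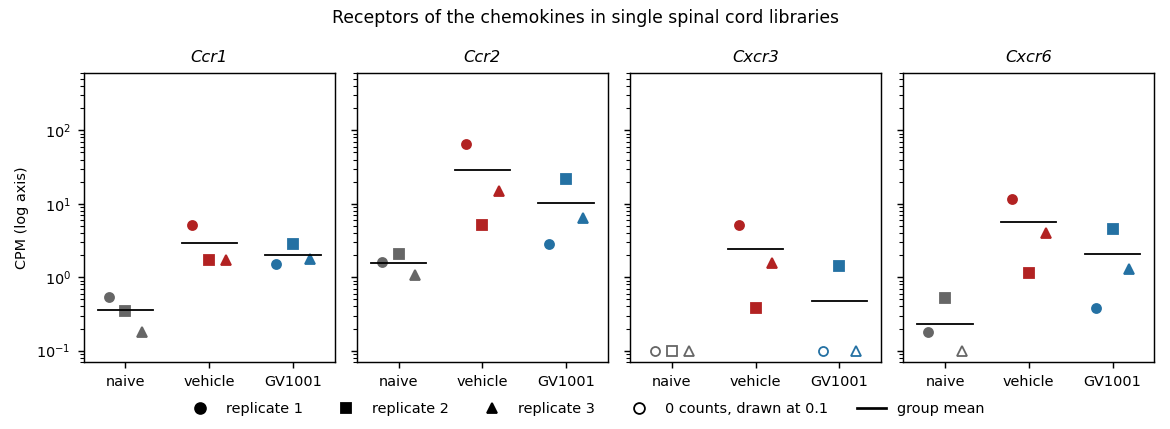
Level of 4 receptors of the chemokines in CPM (log axis) in the 9 libraries, by group, with the replicate number as the symbol, group means as lines and counts of 0 as open symbols at 0.1. Vehicle replicate 1 is the highest library in each panel, from 5.21 CPM for Cxcr3 to 65.9 CPM for Ccr2.

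Other chemokine genes were taken from a fixed list to set the 10 in their family. Of 14 other CC chemokines, 8 were tested in vehicle against naive and edgeR called 0, with 3 at an unadjusted p under 0.05. DESeq2 called these 3, beside 4.84% of its genes called higher, and limma-voom called 0, with 1. The 3 were Ccl8, a monocyte attractant next to Ccl12 (5.43 ± 1.08), Ccl6 (3.95 ± 1.01) and Ccl9 (3.15 ± 0.96), the last 2 being CC chemokines of mouse myeloid cells. Ccl8 held 0, 1 and 2 counts in naive cord, 77, 13 and 55 with vehicle and 12, 65 and 22 with GV1001, and the naive and EAE libraries did not overlap. With 3 naive counts in all, its ratio of summed levels was 49.5 in vehicle against naive (exact 95% interval 16.6 to 243). Ccl17, Ccl19, Ccl25 and Ccl27a, which act mainly on lymphocytes, had log2 fold changes between -0.42 and 1.39 and an unadjusted p over 0.05 each.

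Of 13 other CXC, C and CX3C chemokines, 7 were tested and edgeR called 0, with 2 at an unadjusted p under 0.05, the neutrophil attractants Cxcl1 (2.73 ± 0.89) and Cxcl2 (3.59 ± 1.12). DESeq2 and limma-voom also called 0, with 2 each at an unadjusted p under 0.05. Cxcl1 held 0, 4 and 1 counts in naive cord and 16, 14 and 5 with vehicle, and the ratio for Cxcl2, with 3 naive counts in all, was 13.7 (exact 95% interval 4.35 to 69.0). Cxcl12, a chemokine made in the uninflamed cord, had 63.8 to 70.5 CPM in naive cord and 63.9 to 113 CPM with vehicle (0.36 ± 0.17). The neuronal chemokine Cx3cl1 had 155 to 177 CPM in naive cord and 136 to 172 CPM with vehicle (-0.20 ± 0.11). Cxcl11, the other Cxcr3 ligand, had a log2 fold change of 0.48 ± 0.75 and held 1 to 15 counts in every library.

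The cytokines that induce these chemokines were sparse at this depth. Of 11 listed, 2 had enough counts to be tested, and edgeR called neither in vehicle against naive, both with an unadjusted p under 0.05. DESeq2 called both, beside 4.84% of its genes called higher, and limma-voom called 0, with 2. Tnf held no count in naive cord, 20, 7 and 11 counts with vehicle and 0, 11 and 2 with GV1001. It was at least 13-fold higher with vehicle against 3 counts over the naive group. Il1b held 0, 3 and 1 counts in naive cord, 97, 38 and 12 with vehicle and 4, 79 and 8 with GV1001 (5.09 ± 1.44, adjusted p = 0.0854, edgeR). Ifng, the gene of interferon-gamma, held 10 counts in vehicle replicate 1, 1 in GV1001 replicate 2 and 0 in the other libraries.

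The 21 genes that carry interferon and NF-kB signals were all tested, and all 21 log2 fold changes in vehicle against naive were positive, with a median of 1.25. edgeR called 0, with 16 at an unadjusted p under 0.05, beside 2970 of all 15351 genes tested. DESeq2 called 8, beside 4.84% of its genes called higher. limma-voom called 0, with 13 beside 2671 of all genes. Irf7, an interferon-induced transcription factor, had the largest fold of this list in the mean of both EAE groups against naive (2.74 ± 1.12, adjusted p = 0.284, edgeR). It held 5, 9 and 18 counts in naive cord, 240, 37 and 40 with vehicle and 16, 125 and 9 with GV1001, and its GV1001 replicates 1 and 3 lay within the naive range. In GV1001 against vehicle all 21 log2 fold changes were negative, with a median of -0.61. edgeR called 0, with 2 at an unadjusted p under 0.05. DESeq2 and limma-voom called 0, with 4 and 1. The 21 genes summed to 2439, 903 and 1151 CPM in vehicle replicates 1 to 3 and to 803, 1448 and 1028 CPM with GV1001. The 2 groups thus overlapped, and vehicle replicate 1 stood far above the other libraries.

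Among markers of cells that enter the cord, the sums for monocytes, T cells and dendritic cells moved with the chemokines. The 10 monocyte and macrophage markers, one of which is Ccr2, summed to 12.3 to 26.4 CPM in naive cord, 879, 73.2 and 197 CPM with vehicle and 53.5, 234 and 62.5 CPM with GV1001. All 10 were detected in each group, and Lyz2, the most abundant, held 15 to 31 counts in naive cord and 2426, 107 and 690 with vehicle. The 10 T cell markers summed to 2.49 to 3.79 CPM in naive cord, 87.1, 6.67 and 15.9 CPM with vehicle and 3.40, 30.7 and 8.10 CPM with GV1001, and 6 of them, Cd3d, Cd3g, Cd4, Cd8a, Cd8b1 and Cd2, had no count in naive cord. In vehicle against naive, edgeR and limma-voom called 0 of either list. DESeq2 called 9 of 9 monocyte and macrophage markers and 5 of 9 T cell markers with an adjusted p, beside 4.84% of its genes called higher. In each EAE group the library with the highest chemokine sum was also the highest for both lists. Their part in the chemokine levels was not tested.

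The sum of the microglia markers, 8 of 9 being in the table, also ran with the chemokines. It was 181 to 199 CPM in naive cord, 1177, 308 and 567 CPM with vehicle and 206, 552 and 273 CPM with GV1001. Single markers differed. In vehicle against naive all 8 were positive (median 1.46), with 0 called by edgeR and limma-voom. DESeq2 called 4, beside 4.84% of its genes called higher. In GV1001 against naive 7 were positive and 1 negative, and edgeR called 0. The log2 fold changes there ran from -0.71 ± 0.58 for Gpr34 to 1.53 ± 0.86 for Aif1, with 0.10 ± 0.27 for P2ry12. The 8 B and plasma cell markers summed to 3.74 to 7.42 CPM in naive cord, 54.6, 6.67 and 17.6 CPM with vehicle and 2.83, 6.17 and 7.61 CPM with GV1001, and Cd79a had no count in any library. The GV1001 libraries overlapped the naive ones in B cell markers, although all 3 held Cxcl13 counts. The 9 neutrophil markers followed another order, with 66.5 to 191 CPM in naive cord, 222, 338 and 145 CPM with vehicle and 392, 247 and 462 CPM with GV1001. The 8 Schwann cell markers, of nerve root tissue, summed to 1107, 698 and 1147 CPM in naive cord, 400, 1119 and 1837 CPM with vehicle and 1732, 1835 and 2591 CPM with GV1001. In GV1001 against vehicle 7 of the 8 Schwann cell log2 fold changes were positive (median 0.86) and edgeR called 0, with 2 at an unadjusted p under 0.05. DESeq2 and limma-voom called 0, with 3 and 6. All 10 skeletal muscle genes were positive in the same comparison (median 3.12), and edgeR called 0, with 8 at an unadjusted p under 0.05. DESeq2 called 1, beside 10 of all its genes called higher, and limma-voom called 0, with 8. The part of these tissues in the chemokine levels was not tested.

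By Pearson correlation over the 9 libraries with the mean of the 10 genes, the most similar of 12176 other genes was Psmb8, an interferon-induced subunit of the immunoproteasome (r = 0.996 over 9 libraries and 0.996 over the 6 EAE libraries). It was followed by Ifi204 (0.993), Slamf8 (0.993), Iigp1 (0.990), Bcl3 (0.989), Trim30a (0.988), Ptpn18 (0.988), Ctsc (0.987), Ifi30 (0.987) and Was (0.987). Psmb8 had a mean of 6.83 CPM in naive cord, 93.5 CPM with vehicle and 37.2 CPM with GV1001. For single genes the closest were Csf2rb for Cxcl9 (0.995), Lpar6 for Cxcl16 (0.994), Cytip for Ccl2 (0.993), Sting1 for Cxcl10 (0.990), Ifitm3 for Ccl5 (0.989), Ifi27 for Ccl7 (0.984), Slc10a3 for Ccl3 (0.982), Nckap1l for Ccl4 (0.976) and Tgif2 for Ccl12 (0.974). Cxcl13 was closest to another of the 10, Cxcl9 (0.991). These values are descriptions without a test, and all 9 libraries share the difference between naive and EAE cord. MHC class I and II genes, immunoglobulin and T cell receptor segments and predicted genes were left out of both searches, so they could not appear here.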

How the data were processed

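Total RNA of spinal cord was sequenced from transcript 3′ ends with a QuantSeq 3′ mRNA V2 kit, per the labels' protocols. These name TRIzol and a Maxwell kit for extraction, and which library had which is not given in the sources used here. The deposited values are raw counts per gene symbol, and the submitters' processing notes name FastQC, STAR, HTSeq and build GRCm39, with versions and strand setting not given in the sources used here. The use of molecular identifiers is not given there either. Single-library files and the joint table held the same counts.

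The 10 genes and all gene lists were chosen with earlier results of these data known. Symbols were matched exactly. A filter on low counts (filterByExpr on the groups, minimum count 10) left 15351 genes, and TMM normalisation was used. Group differences were tested two-sided with the quasi-likelihood F test of edgeR 4.0.16 (R 4.3.3) in 1 fit of all 9 libraries, with Benjamini-Hochberg adjustment over all genes tested at 0.05. The SE was derived from the F statistic. The genes named from lists were the 10, their receptors, the largest folds among inducing genes and the most abundant marker of a list. Likeness was Pearson's r of log2 CPM (prior count 2) among genes at 5 CPM or more in a group, with the gene classes named above left out. Intervals of ratios are exact and those of shares are Wilson intervals, at 95%. Alternatives were DESeq2 1.42.0 (no such filter), limma-voom (limma 3.58.1), other normalisation, filter and form, 2-group fits, the replicate number as a block and leaving out each library. The edgeR procedure was tested on simulated counts. Promoters were from RefSeq (GRCm38.p6), and no deposited coordinates were used. Some genes on the fixed lists are not reported here.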

Additional observations from a re-analysis of the deposited data

How the results depend on the processing

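Of 660 values of single chemokine genes under 17 other settings, 616 kept their direction and were called, or not called, as in the main fit. A further 29 newly passed, 7 no longer passed and 8 reversed. The 8 were 6 genes in GV1001 against vehicle without vehicle replicate 1 and Ccl3 and Ccl4 in GV1001 against naive without GV1001 replicate 2. Ccl2 and Cxcl9 under DESeq2, which gave them no adjusted p, were counted as not called. The main fit called only Ccl12 in vehicle against naive, so most of the 616 were uncalled values that stayed uncalled. Over all fits that leave out 1 library, the log2 fold change in GV1001 against vehicle ran from -3.68 to 0.56 for Ccl2, -3.76 to 1.74 for Ccl5, -2.10 to 0.21 for Ccl7, -4.54 to 1.29 for Cxcl9, -3.74 to 0.17 for Cxcl10 and -3.17 to 1.07 for Cxcl13, and in GV1001 against naive from -0.04 to 2.79 for Ccl3 and -1.56 to 2.73 for Ccl4. In vehicle against naive, where edgeR called 1 of the 10 and 3 genes in all, DESeq2 called 8 and 1104, limma-voom 0 and 0, a fit with no filter on low counts 5 and 543, library totals alone 20 genes, and leaving out each library 0 to 8 of the 10 and 0 to 1652 genes. In GV1001 against vehicle (0 of 10, 0 in all), no setting called any of the 10; DESeq2 called 13 genes, and leaving out each library called 0 to 8. In GV1001 against naive (0 and 0), DESeq2 called 1 and 45, library totals, no filter and the older form 1 gene each, the 2 groups alone 5, and leaving out each library 0 of the 10 and 0 to 3 genes. For both EAE groups against naive (0 and 1), DESeq2 called 4 and 569, limma-voom 0 genes, no filter 1 and 20, the older form 1 and 2, and leaving out each library 0 to 3 and 0 to 514. The cause of these differences was not tested; without the filter more genes enter the fit.

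With the replicate number as a block, edgeR called 0 of the 10 and 0 genes in all in each comparison, and Ccl12 in vehicle against naive had a log2 fold change of 4.33 (adjusted p = 0.107). For libraries with the same number, deviations of log2 CPM from each gene's group mean were correlated. The correlation was over 0.1 in 2 of 9 pairs (range -0.501 to 0.249), so the numbers are not taken as pairing. Depth limits Cxcr5, Ccr3, Ifng and the naive levels of 9 of the 10 genes to a few counts.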
